A study of Homo sapiens with 18 samples.

Results

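The genes described here are 43 antiviral effector genes that cells switch on in response to interferon. The list was chosen by name, with earlier results of these data known, and 42 of its members were measured among 18417 genes. They were followed in Raji, a human B-cell line that was established from Burkitt lymphoma and carries Epstein-Barr virus. TDRD7, the remaining gene of the list, was not analysed here. Each gene was represented by the probe set that names it alone and has the highest mean over the arrays, and every measured member had only 1 such probe set. Per the labels, the cells received 3 mM sodium n-butyrate together with 0.05 µM of a phorbol ester as inducers, and maslinic acid at 19 µM, and were harvested at 0, 4, 8, 12, 24 or 48 h. The 18 Affymetrix arrays comprise 3 per harvest time, which the labels call biological replicates without saying whether they were separate cultures, so p-values measure the spread between these arrays. Every group, 0 h included, carries the same labels for all 3 agents. The effects of the 3 agents and of time in culture therefore cannot be told apart.

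Butyrate, an inhibitor of histone deacetylases, and phorbol esters, activators of protein kinase C, are standard inducers of the Epstein-Barr virus lytic cycle in Raji cells. Maslinic acid is a plant triterpene. Type I interferons bind the IFNAR1 and IFNAR2 receptor pair, which acts through the kinases JAK1 and TYK2 to form a complex of STAT proteins with IRF9. This complex binds the interferon-stimulated response element (ISRE) in target promoters. The effectors made in this way degrade or edit viral RNA, block entry and budding, tag proteins with ISG15, or act in nuclear bodies, and many of them also respond to other members of the interferon regulatory factor (IRF) family.

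Promoter windows are shown first, since an ISRE is the sequence feature that this gene class is known for. The windows are RefSeq sequences of build GRCh38.p14 and cover 250 bases before to 50 bases after an annotated start, read 5′ to 3′ on the strand of the gene. Those of the 8 members with the largest measured difference between 24 h and 12 h among members with an entry are printed. A second start of RSAD2 and the outermost start of MX1 were added after their values were seen, the first because the outer RSAD2 window overlaps a CMPK2 window and the second because MX1 holds the motif and did not pass the tests over time. Capitals mark the ISRE core searched for, GAAANNGAAA or its reverse complement TTTCNNTTTC, where N is any base.

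IFI44L, chr1:78620198-78620497, + strand: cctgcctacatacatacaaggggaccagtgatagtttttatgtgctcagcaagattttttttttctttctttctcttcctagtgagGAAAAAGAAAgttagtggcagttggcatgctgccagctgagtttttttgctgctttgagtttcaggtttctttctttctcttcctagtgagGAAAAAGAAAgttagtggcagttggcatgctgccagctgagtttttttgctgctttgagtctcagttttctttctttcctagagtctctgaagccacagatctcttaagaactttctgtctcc
IFI44, chr1:78649539-78649838, + strand: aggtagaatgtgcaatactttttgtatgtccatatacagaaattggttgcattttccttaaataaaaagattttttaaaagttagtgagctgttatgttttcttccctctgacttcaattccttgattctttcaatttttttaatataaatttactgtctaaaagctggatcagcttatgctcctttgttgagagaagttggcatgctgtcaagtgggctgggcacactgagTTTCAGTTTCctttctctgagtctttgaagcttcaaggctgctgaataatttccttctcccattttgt
XAF1, chr17:6755197-6755496, + strand: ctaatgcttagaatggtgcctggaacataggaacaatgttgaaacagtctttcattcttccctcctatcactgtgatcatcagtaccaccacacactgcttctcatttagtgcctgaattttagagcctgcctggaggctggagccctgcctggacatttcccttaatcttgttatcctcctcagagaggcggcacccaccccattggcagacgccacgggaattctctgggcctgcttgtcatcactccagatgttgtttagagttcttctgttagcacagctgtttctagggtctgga
DDX60, chr4:168318703-168319002, - strand: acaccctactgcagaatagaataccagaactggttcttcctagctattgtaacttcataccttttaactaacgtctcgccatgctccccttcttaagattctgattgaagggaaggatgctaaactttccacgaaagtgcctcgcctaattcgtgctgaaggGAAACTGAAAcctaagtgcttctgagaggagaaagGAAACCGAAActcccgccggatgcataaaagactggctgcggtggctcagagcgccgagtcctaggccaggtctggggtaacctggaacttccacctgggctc
RSAD2, outer start, chr2:6865635-6865934, + strand: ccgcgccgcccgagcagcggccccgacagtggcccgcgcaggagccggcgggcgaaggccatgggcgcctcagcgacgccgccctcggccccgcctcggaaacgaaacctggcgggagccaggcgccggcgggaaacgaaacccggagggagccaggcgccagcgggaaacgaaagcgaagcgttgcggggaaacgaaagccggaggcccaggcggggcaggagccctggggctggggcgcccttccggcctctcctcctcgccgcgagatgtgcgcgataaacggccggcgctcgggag
RSAD2, inner start, chr2:6877527-6877826, + strand: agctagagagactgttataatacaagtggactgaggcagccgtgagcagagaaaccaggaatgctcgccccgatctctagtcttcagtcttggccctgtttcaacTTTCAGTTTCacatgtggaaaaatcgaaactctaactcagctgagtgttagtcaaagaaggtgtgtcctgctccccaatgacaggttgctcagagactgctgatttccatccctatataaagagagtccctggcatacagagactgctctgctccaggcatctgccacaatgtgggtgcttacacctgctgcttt
EPSTI1, chr13:42992192-42992491, - strand: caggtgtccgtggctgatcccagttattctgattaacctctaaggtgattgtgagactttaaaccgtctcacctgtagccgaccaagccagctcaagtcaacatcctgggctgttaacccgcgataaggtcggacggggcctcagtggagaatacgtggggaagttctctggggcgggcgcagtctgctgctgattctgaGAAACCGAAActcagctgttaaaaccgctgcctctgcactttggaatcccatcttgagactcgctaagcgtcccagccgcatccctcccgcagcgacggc
SAMD9L, chr7:93148336-93148635, - strand: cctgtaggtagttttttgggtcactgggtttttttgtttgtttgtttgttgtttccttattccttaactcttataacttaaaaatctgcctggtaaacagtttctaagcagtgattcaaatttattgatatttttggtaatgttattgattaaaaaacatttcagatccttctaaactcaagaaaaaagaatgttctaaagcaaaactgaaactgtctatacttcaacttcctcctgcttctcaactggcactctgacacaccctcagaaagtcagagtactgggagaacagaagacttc
PLSCR1, chr3:146544558-146544857, - strand: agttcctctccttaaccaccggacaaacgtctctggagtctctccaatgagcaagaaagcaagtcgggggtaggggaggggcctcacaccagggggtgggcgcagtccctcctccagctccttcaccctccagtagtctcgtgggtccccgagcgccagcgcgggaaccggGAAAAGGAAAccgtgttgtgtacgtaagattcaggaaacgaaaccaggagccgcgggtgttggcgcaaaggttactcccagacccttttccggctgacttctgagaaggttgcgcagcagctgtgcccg
MX1, outermost start, chr21:41420308-41420607, + strand: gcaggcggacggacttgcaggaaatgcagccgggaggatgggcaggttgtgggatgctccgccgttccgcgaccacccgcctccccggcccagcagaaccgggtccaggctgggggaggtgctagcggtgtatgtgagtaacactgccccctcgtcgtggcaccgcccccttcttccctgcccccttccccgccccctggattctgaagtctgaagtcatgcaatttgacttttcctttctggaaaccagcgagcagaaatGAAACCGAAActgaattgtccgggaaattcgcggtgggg

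The core stood in 7 of these 10 windows. In IFI44L it occurred 2 times, at positions -164 and -73 relative to the start, inside a stretch of 85 bases that is present 2 times in the window, 91 bases apart. DDX60 also held 2 cores, at -88 and -53. The single cores began at -18 in IFI44, -79 in PLSCR1, -50 in EPSTI1 and -145 at the inner start of RSAD2, and at 11 bases past the start in MX1. The windows of XAF1, SAMD9L and the outer RSAD2 start held no match to these letters. The search took only exact matches to the core, so similar sites with another spacing were not counted. The stretch gaaacgaaa, with a shorter spacing, occurs in the outer RSAD2 window and in that of PLSCR1.

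Of the 43 listed genes, 38 had an entry in the promoter table. OAS2, OASL, MX2, LY6E and LAMP3 had none. The ISRE core was found in at least 1 window of 21 of the 38 members (55.3%), against 1195 of 27305 genes in the table (4.4%) and 1255 of all 35116 windows (3.6%). The gamma-activated site core TTCNNNGAA, the palindromic element of STAT dimers, stood in 14 of the 38 (36.8%) against 9.4% of all genes. HERC5, which encodes the main ligase that attaches ISG15 to proteins, held 3 ISRE cores in a single window. IFI6, a mitochondrial protein that limits apoptosis, did so as well. OAS1, SP100, SP110 and SP140 were among the members in which no core was found. Among members with an entry, the core was present in 12 of 22 that were higher at 24 h than at 0 h, in 7 of 10 that passed the test at 48 h but not at 24 h, and in 2 of 5 that passed at neither time. The SP110 and SP140 windows overlap on opposite strands, as do those of CMPK2 and the outer start of RSAD2, so these genes share sequence.

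All values below are deposited log2 intensities. A level is compared only within a gene, since probe sets differ in brightness, and a difference of 1 on this scale is a 2-fold change. Differences are given with the standard error of the limma fit after the ± sign, and arrays are listed in the order of replicates 1 to 3. Array medians lay between 4.03 and 4.25, and the interquartile range was 2.37 on replicate 2 of 8 h and reached 3.16 elsewhere. A level is called near background where its mean lay under the lower quartile of each array of its time (2.89 to 3.24), and a difference from such a level is given as "at least". The number of arrays limits the precision. The 5 measured B-cell markers had group means from 5.21 for CD79B to 10.03 for MS4A1 at 0, 24 and 48 h, and none was near background. Their average was 7.69 to 7.81 on the 0 h arrays, 6.46 to 7.22 at 24 h and 6.52 to 7.43 at 48 h. All 5 had means below their 0 h mean at each later time. Those called lower by limma were PAX5 at 8 h (-1.26, adjusted p = 0.0181), MS4A1, CD22 and PAX5 at 12 h (-1.26, -1.29 and -1.34) and CD79A at 48 h (-1.77, adjusted p = 0.0115). None was called at 24 h, where 4 of 5 had an unadjusted p under 0.05. The part of these lower levels in the changes of the effector genes was not tested.

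Most members were higher late in the course. Of the 42 members, 26 were higher than at 0 h after 24 h and 36 after 48 h, and none was lower at either time. Over the whole course, 37 of 42 members differed from 0 h by the moderated F test of limma at an adjusted p under 0.05, against 16.4% of all genes. At 24 h the 26 higher members (61.9%) compare with 6.74% of all genes higher, and at 48 h the 36 (85.7%) compare with 6.92%. The members were chosen with earlier results of these data known, so this contrast describes the list only. Before 24 h the test was passed by 0 members at 4 h (1.75% of all genes in either direction), 3 at 8 h (3.5% higher), and 2 higher (3.91%) and 1 lower (4.14%) at 12 h. The median difference of the 42 members from 0 h was 1.70 at 24 h and 2.27 at 48 h, against -0.01 and 0.05 over all genes. The groups did not overlap for 33 members at 24 h and 40 at 48 h, all of them higher, against 13.7% and 15.2% of all genes. MX1 alone among the 42 had a mean below its 0 h mean at 24 h (-0.09), and none did at 48 h. In bulk RNA a larger share of responding cells and more RNA per cell cannot be told apart.

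**Figure D1:**
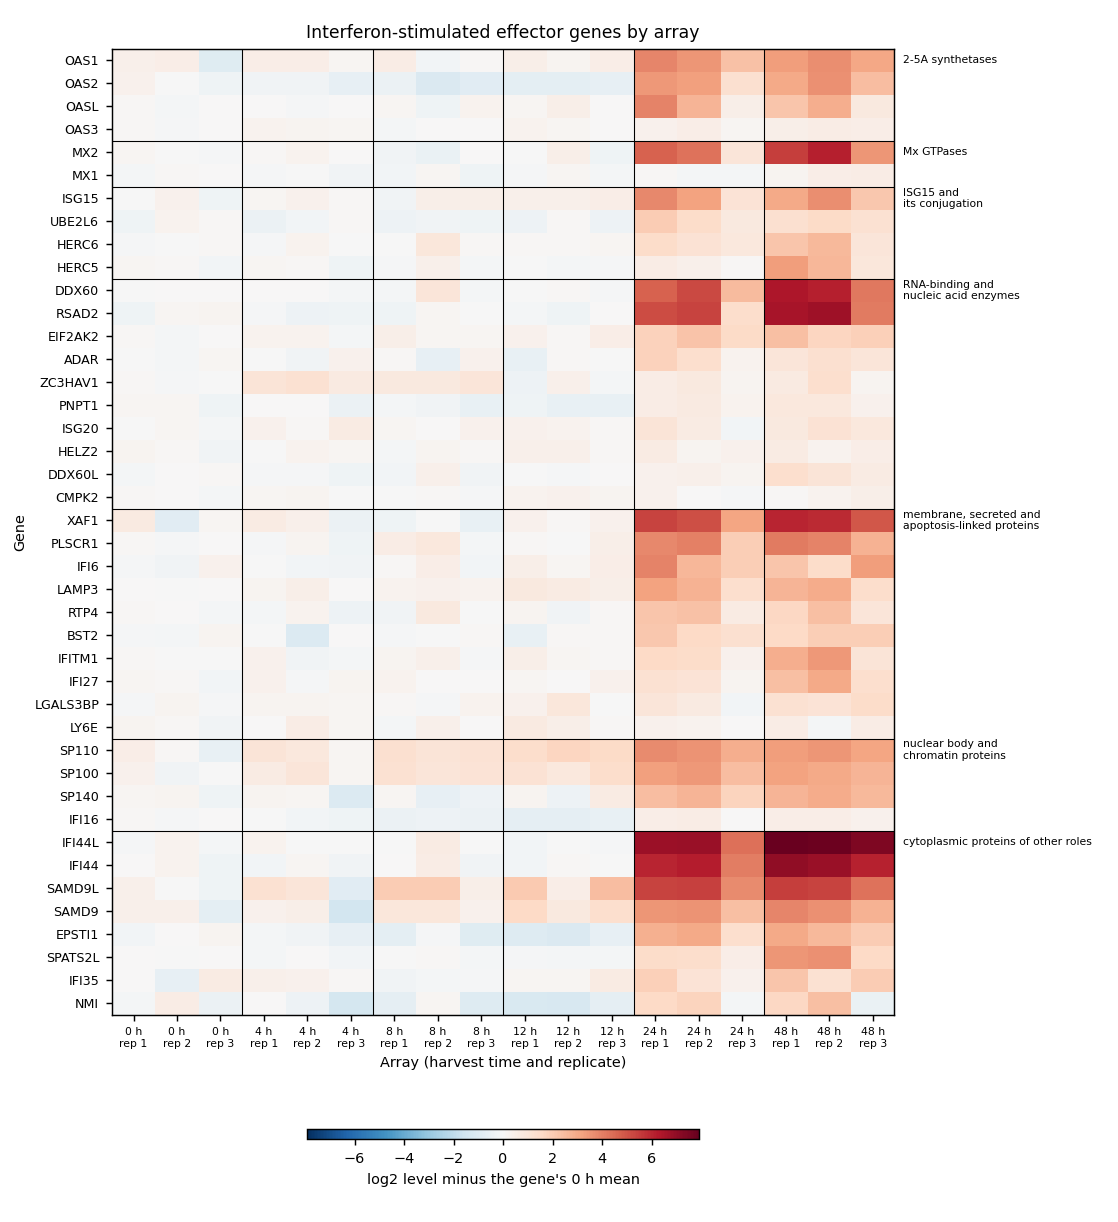
Heat map of the 42 measured members (rows, grouped by role) on the 18 arrays (columns, by harvest time and replicate). Colour is the log2 level minus the 0 h mean of the gene. The 24 h and 48 h arrays are red for most rows, deep red for IFI44L and IFI44, and replicate 3 of 24 h is paler than the other 24 h arrays.

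The 2-5A synthetases make the short 2′-5′ linked adenylates that activate the RNase L nuclease, except OASL, which lacks that activity and binds RIG-I. In this family 3 of 4 genes were higher at 24 h and all 4 at 48 h. OAS1 stood at 7.25, 7.36 and 5.91 at 0 h, 7.33, 7.07 and 7.37 at 12 h, 10.67, 10.32 and 9.13 at 24 h and 10.13, 10.50 and 9.92 at 48 h. Every late array lay above every array from 0 to 12 h. The 24 h mean exceeded the 0 h mean by 3.20 ± 0.37 (adjusted p = 1.44e-05). OAS2 read 5.91, 5.59 and 5.28 at 0 h, 4.83, 4.81 and 4.93 at 12 h, 9.05, 8.85 and 6.88 at 24 h and 8.60, 9.23 and 8.04 at 48 h. It too was higher on each late array than on any earlier one, although replicate 3 of 24 h was well below the other late arrays, and its difference from 0 h was 2.66 ± 0.41 at 24 h (adjusted p = 0.000252) and 3.02 ± 0.41 at 48 h (adjusted p = 4.72e-05). For OASL the values were 3.98, 3.68 and 3.91 at 0 h, 4.02, 4.32 and 3.90 at 12 h, 7.77, 6.53 and 4.30 at 24 h and 6.06, 6.75 and 4.65 at 48 h. Replicate 3 of 24 h lay among the 12 h arrays, while the other 2 arrays of 24 h stood far above them. OASL differed from 0 h by 2.34 ± 0.59 at 24 h (adjusted p = 0.0123), but leaving out replicate 1 of 24 h ended the call (adjusted p = 0.0802). OAS3, the family member that acts on long double-stranded RNA, read 3.34, 3.13 and 3.24 at 0 h, 3.51, 3.38 and 3.29 at 12 h, 3.56, 3.78 and 3.38 at 24 h and 3.69, 3.84 and 3.79 at 48 h. Only its 48 h difference of 0.54 ± 0.13 passed the test (adjusted p = 0.00982), and it was far smaller than those of its relatives.

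Of the Mx GTPases, 1 of 2 was higher at 24 h and at 48 h. MX2, a nuclear-envelope GTPase known for blocking HIV-1, read 3.28, 3.09 and 3.01 at 0 h, 3.12, 3.60 and 2.81 at 12 h, 7.77, 7.42 and 4.08 at 24 h and 8.61, 9.28 and 6.61 at 48 h. It was higher on each late array than before, with replicate 3 the lowest at both late times. The difference from 0 h was 3.30 ± 0.70 at 24 h (adjusted p = 0.00382) and 5.04 ± 0.70 at 48 h (adjusted p = 6.4e-05). Its 0 h mean of 3.12 was at the upper end of the lower quartiles of the 0 h arrays (2.99 to 3.12), so the 0 h level was close to background. MX1, the cytoplasmic GTPase best known for blocking influenza virus, read 3.24, 3.47 and 3.40 at 0 h, 3.28, 3.50 and 3.21 at 12 h, 3.45, 3.20 and 3.19 at 24 h and 3.57, 3.91 and 3.95 at 48 h. Its 24 h arrays lay within the range of the earlier arrays, and its 48 h arrays were above all of them by a small margin. The MX1 difference from 0 h was -0.09 ± 0.16 at 24 h and 0.44 ± 0.16 at 48 h (adjusted p = 0.0694), and it did not pass the F test (adjusted p = 0.0772).

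ISG15, a ubiquitin-like protein, is attached to others by the E2 enzyme UBE2L6 and HERC ligases, and 3 of these 4 genes were higher at 24 h and 4 of 4 at 48 h. ISG15 read 4.68, 5.03 and 4.39 at 0 h, 5.12, 5.09 and 5.20 at 12 h, 8.52, 7.90 and 5.76 at 24 h and 7.69, 8.38 and 6.84 at 48 h. All late arrays were above all earlier ones, and replicate 3 of 24 h exceeded the 12 h arrays by less than the other late arrays did. The difference from 0 h was 2.70 ± 0.49 at 24 h (adjusted p = 0.00108) and 2.94 ± 0.49 at 48 h (adjusted p = 0.000372). UBE2L6 read 6.57, 7.19 and 7.05 at 0 h, 6.51, 7.04 and 6.51 at 12 h, 8.92, 8.40 and 7.73 at 24 h and 8.20, 8.44 and 8.16 at 48 h. It changed less, by 1.42 ± 0.25 at 24 h (adjusted p = 0.000861), again with no overlap between 24 h and 0 h. HERC6 was near background at 0 h and read 2.60, 2.68 and 2.81 at 0 h, 2.80, 2.79 and 2.87 at 12 h, 4.13, 3.85 and 3.55 at 24 h and 4.91, 5.28 and 3.64 at 48 h. It rose by at least 1.14 ± 0.31 at 24 h (adjusted p = 0.0198) and at least 1.91 ± 0.31 at 48 h (adjusted p = 0.000293), and the 24 h call was lost in 4 of the 6 settings that left out 1 array of the comparison.

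HERC5, the neighbour of HERC6 and the main human ISG15 ligase, passed the test against 0 h only at 48 h. It read 3.06, 2.97 and 2.66 at 0 h, 2.84, 2.73 and 2.81 at 12 h, 3.47, 3.27 and 2.99 at 24 h and 6.23, 5.54 and 3.82 at 48 h. The 24 h arrays overlapped those of 0 h, and the 48 h arrays were above every other array. Its difference from 24 h to 48 h was 1.95 ± 0.39 (adjusted p = 0.0314), and from 0 h to 48 h at least 2.30 ± 0.39 (adjusted p = 0.000388).

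Among RNA-binding proteins and nucleic acid enzymes, 4 of 10 measured members were higher at 24 h and 8 of 10 at 48 h. DDX60, a DExD/H-box helicase linked to RIG-I signalling, was near background at 0 h and 12 h and read 2.49, 2.56 and 2.54 at 0 h, 2.50, 2.61 and 2.42 at 12 h, 7.16, 7.74 and 5.03 at 24 h and 8.93, 8.65 and 6.68 at 48 h. The late arrays were far above all the others. It rose by at least 4.11 ± 0.56 at 24 h (adjusted p = 7.23e-05) and at least 5.56 ± 0.56 at 48 h (adjusted p = 1.81e-06). RSAD2 encodes viperin, a radical SAM enzyme that makes a chain-terminating nucleotide, and read 2.69, 3.14 and 3.21 at 0 h, 2.87, 2.70 and 3.08 at 12 h, 8.15, 8.37 and 4.42 at 24 h and 9.50, 9.71 and 7.10 at 48 h. Replicate 3 of 24 h was closer to the 12 h arrays than to the other 24 h arrays. The difference from 0 h was 3.96 ± 0.75 at 24 h (adjusted p = 0.00147) and 5.75 ± 0.75 at 48 h (adjusted p = 3.07e-05). The RSAD2 mean of 3.02 at 0 h lay within the lower quartiles of the 0 h arrays (2.99 to 3.12), so it was close to background, and the 12 h mean was near background. EIF2AK2 encodes PKR, the kinase that halts translation on double-stranded RNA, and read 7.79, 7.59 and 7.77 at 0 h, 8.08, 7.83 and 8.22 at 12 h, 9.57, 9.94 and 9.22 at 24 h and 10.12, 9.44 and 9.61 at 48 h. Its late arrays were all above the earlier ones, and the difference was 1.86 ± 0.21 at 24 h (adjusted p = 9.93e-06).

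Smaller differences were measured for the remaining genes of this group. ADAR, which edits adenosine to inosine in double-stranded RNA, was 1.13 higher at 24 h (adjusted p = 0.0231) and 1.05 higher at 48 h (adjusted p = 0.0301). DDX60L, near background at 0 h, rose by at least 1.01 ± 0.18 at 48 h (adjusted p = 0.000849) and not at 24 h. The exonuclease gene ISG20 was 0.91 higher at 48 h (adjusted p = 0.0126) but did not pass the F test (adjusted p = 0.108). PNPT1, a mitochondrial RNA nuclease, was 0.67 higher at 48 h (adjusted p = 0.0293). For HELZ2, a helicase and nuclear receptor coactivator, the differences were 0.38 at 24 h and 0.49 at 48 h (adjusted p = 0.0577), and for the nucleotide kinase CMPK2 they were 0.08 and 0.27 (adjusted p = 0.249). Neither passed the F test (adjusted p = 0.208 for HELZ2 and 0.419 for CMPK2).

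Membrane, secreted and apoptosis-linked products followed, with 6 of 10 genes higher at 24 h and 9 of 10 at 48 h. XAF1, a partner and antagonist of the apoptosis inhibitor XIAP, read 4.62, 3.01 and 4.07 at 0 h, 4.25, 4.02 and 4.23 at 12 h, 9.23, 9.02 and 7.00 at 24 h and 9.92, 9.77 and 8.82 at 48 h. The late arrays were well above the others, and the difference from 0 h was 4.52 ± 0.49 at 24 h (adjusted p = 7.87e-06) and 5.61 ± 0.49 at 48 h (adjusted p = 3.43e-07). PLSCR1, a phospholipid scramblase, read 3.59, 3.41 and 3.54 at 0 h, 3.60, 3.47 and 3.97 at 12 h, 7.31, 7.47 and 5.46 at 24 h and 7.61, 7.43 and 6.25 at 48 h. It was 3.23 ± 0.43 higher at 24 h (adjusted p = 5.52e-05), with replicate 3 the lowest array at both late times. IFI6 read 4.33, 4.11 and 4.75 at 0 h, 4.86, 4.52 and 4.94 at 12 h, 8.32, 7.00 and 6.36 at 24 h and 6.57, 5.82 and 7.68 at 48 h. At 48 h its replicate 3 was the highest array, unlike most members, and the difference from 0 h was 2.83 ± 0.42 at 24 h (adjusted p = 0.000194) and 2.29 ± 0.42 at 48 h (adjusted p = 0.000942).

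Other genes of this group that rose by 24 h were LAMP3, a lysosomal membrane protein (2.41, adjusted p = 0.000305), RTP4, a receptor chaperone (1.73, adjusted p = 0.00553), and BST2, the tether that holds budding virions (1.67, adjusted p = 0.000396). A further 3 passed the test only against 0 h at 48 h. IFI27 rose by 2.24 (adjusted p = 6.4e-05), the entry inhibitor IFITM1 by 2.43 (adjusted p = 0.000635) and the secreted glycoprotein LGALS3BP by 1.26 (adjusted p = 0.00208). LY6E, a GPI-anchored protein that blocks coronavirus fusion, differed by 0.21 at 24 h and 0.33 at 48 h (adjusted p = 0.415) and did not pass the F test (adjusted p = 0.742).

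Early calls were few, with 3 members higher at 8 h (3.5% of all genes) and 2 higher (3.91%) and 1 lower (4.14%) at 12 h. Apart from ZC3HAV1 at 8 h, they were of SP100, SP110 and IFI16, which were listed as nuclear body and chromatin proteins. SP100, a scaffold of PML nuclear bodies that restrains herpesvirus genomes, and SP110 and SP140, chromatin readers of the same family, were 3 of the 4 genes in this group, with the DNA sensor IFI16 the fourth. SP110 read 6.78, 6.30 and 5.62 at 0 h, 7.23, 7.05 and 6.37 at 4 h, 7.51, 7.24 and 7.38 at 8 h and 7.59, 7.92 and 7.77 at 12 h. Its late arrays read 9.96, 9.76 and 9.11 at 24 h and 9.52, 9.69 and 9.32 at 48 h. All arrays from 8 h onward were above the 0 h arrays, and all late arrays were above those of 12 h. SP110 was higher than at 0 h by 1.15 ± 0.27 at 8 h (adjusted p = 0.0154), 1.53 ± 0.27 at 12 h (adjusted p = 0.0015) and 3.38 ± 0.27 at 24 h (adjusted p = 3.91e-07).

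SP100 read 6.31, 5.72 and 5.95 at 0 h, 6.64, 6.93 and 6.16 at 4 h, 7.18, 6.96 and 7.06 at 8 h and 7.15, 6.84 and 7.41 at 12 h. Its late arrays read 9.25, 9.44 and 8.41 at 24 h and 9.20, 8.98 and 8.65 at 48 h. It followed the order of SP110, with no overlap between 0 h and any time from 8 h. The differences from 0 h were 1.08 ± 0.26 at 8 h (adjusted p = 0.0153), 1.14 ± 0.26 at 12 h (adjusted p = 0.00871) and 3.04 ± 0.26 at 24 h (adjusted p = 5.9e-07). SP140, the chromosomal neighbour of SP110, read 6.93, 6.96 and 6.40 at 0 h, 6.97, 6.39 and 7.42 at 12 h, 9.20, 9.46 and 8.50 at 24 h and 9.48, 9.68 and 9.34 at 48 h. Its 12 h arrays overlapped those of 0 h, and it was higher only at the late times, by 2.29 ± 0.34 at 24 h (adjusted p = 0.000173).

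ZC3HAV1 was the third gene higher at 8 h. It encodes the zinc-finger antiviral protein, which binds CpG-rich viral RNA, and read 6.84, 6.63 and 6.71 at 0 h, 7.75, 7.90 and 7.43 at 4 h, 7.47, 7.52 and 7.68 at 8 h and 6.33, 7.13 and 6.54 at 12 h. At 24 h it read 7.33, 7.52 and 6.96, and at 48 h 7.44, 8.06 and 6.97. Levels at 4 h and 8 h were above those at 0 h on each array, and those at 12 h overlapped them. The difference from 0 h was largest at 4 h (0.97), where no member passed the test, and 0.83 ± 0.25 at 8 h (adjusted p = 0.0499). It was -0.06 ± 0.25 at 12 h, 0.55 at 24 h (adjusted p = 0.186) and 0.77 ± 0.25 at 48 h (adjusted p = 0.042).

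IFI16 was the single member called lower than at 0 h, and it was so at 12 h. It read 9.59, 9.40 and 9.53 at 0 h, 9.04, 9.12 and 9.03 at 8 h, 8.80, 8.81 and 8.90 at 12 h, 10.01, 10.11 and 9.57 at 24 h and 10.03, 10.02 and 9.82 at 48 h. The 12 h arrays were below all 0 h arrays and the late arrays above all 12 h arrays. IFI16 fell by 0.67 from 0 h to 12 h (adjusted p = 0.00796) and rose by 1.06 ± 0.15 from 12 h to 24 h (adjusted p = 0.000825), and its 24 h and 48 h levels were not called against 0 h (adjusted p = 0.0513 at 48 h). Larger falls at 12 h that did not pass the test were those of NMI (-1.04, adjusted p = 0.356), EPSTI1 (-0.94, adjusted p = 0.123) and OAS2 (-0.74, adjusted p = 0.328). For 6 of 42 members all 12 h arrays lay below all 0 h arrays, against 12.3% of all genes.

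Few members were called early. The share of members higher was 7.14% at 8 h and 4.76% at 12 h, the latter near that of all genes. At 4 h, where no member passed, 3 had an unadjusted p under 0.05 in limma. The calls at 8 h depended on single arrays. The ZC3HAV1 call was lost with any 1 of the 6 arrays left out. All 3 were lost without replicate 1 of 8 h, and 1 remained without replicate 2 or replicate 3 of 0 h. For SP100, the 12 h call did not hold when replicate 2 of 0 h (adjusted p = 0.0509) or replicate 3 of 12 h (adjusted p = 0.0503) was left out, and those of SP110 and IFI16 held with each array left out.

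Among the cytoplasmic proteins of other roles, 6 of 8 genes were higher at 24 h and 7 of 8 at 48 h. IFI44L, a paralog of IFI44 widely used as a marker of interferon exposure, was near background at 0 h and read 2.67, 3.05 and 2.64 at 0 h, 2.60, 2.76 and 2.69 at 12 h, 9.57, 9.62 and 7.13 at 24 h and 10.57, 10.51 and 10.15 at 48 h. The late arrays were far above all earlier ones, and each 48 h array was above each 24 h array. It rose by at least 5.98 ± 0.43 at 24 h (adjusted p = 1.64e-07), or at least 63.3-fold, and by at least 7.62 ± 0.43 at 48 h (adjusted p = 4.01e-09), or at least 196-fold. IFI44, its neighbour on chromosome 1, read 2.68, 2.90 and 2.32 at 0 h, 2.44, 2.73 and 2.60 at 12 h, 8.67, 8.82 and 6.67 at 24 h and 9.66, 9.47 and 8.68 at 48 h. It was near background at each time before 24 h, with every late array far above, and rose by at least 5.42 ± 0.41 at 24 h (adjusted p = 1.82e-07) and at least 6.63 ± 0.41 at 48 h (adjusted p = 6.69e-09).

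SAMD9L and its neighbour SAMD9 encode large cytoplasmic proteins that restrict poxviruses and slow translation. SAMD9L read 4.04, 3.64 and 3.31 at 0 h, 5.71, 4.16 and 6.11 at 12 h, 9.01, 9.07 and 7.39 at 24 h and 9.13, 8.99 and 7.98 at 48 h. The 12 h arrays were already above the 0 h arrays, without passing the test (a difference of 1.66 ± 0.60, adjusted p = 0.104), and the late arrays were above both. Its difference from 0 h was 4.83 ± 0.60 at 24 h (adjusted p = 3.14e-05). SAMD9 was 3.15 higher at 24 h (adjusted p = 0.000157), EPSTI1, named for epithelial-stromal interaction, 2.36 (adjusted p = 0.000188) and IFI35, a partner of NMI, 1.10 (adjusted p = 0.041). NMI itself, an adaptor that binds STAT proteins, read 4.59, 5.32 and 4.28 at 0 h, 3.55, 3.48 and 4.03 at 12 h, 6.31, 6.49 and 4.57 at 24 h and 6.34, 7.08 and 4.18 at 48 h. Its replicate 3 lay within the 0 h range at 24 h and below it at 48 h, and the differences of 1.06 ± 0.60 at 24 h and 1.14 ± 0.60 at 48 h did not pass the test (adjusted p = 0.334 and adjusted p = 0.249).

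Most calls between consecutive times lay in the step from 12 h to 24 h. Here 25 of 42 members were called higher and none lower, against 0.814% of all genes higher, and all 25 rose by at least 2-fold. The median difference of the members was 1.75, against -0.04 over all genes, and the arrays did not overlap for 30 members against 7.84% of all genes. No member passed the test between 4 h and 8 h, where 0.223% of all genes did, or between 8 h and 12 h, where no gene did. At an unadjusted p under 0.05 in limma, 0 and 2 members passed these steps. Of the 25 calls from 12 h to 24 h, 16 held with each array left out, and the count was also 16 without replicate 1 or replicate 2 of 24 h. The 9 calls that were lost in some such setting were MX2, ISG15, ADAR, PNPT1, RSAD2, LAMP3, RTP4, SAMD9 and SAMD9L.

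From 24 h to 48 h, HERC5 and SPATS2L were higher, 2 of 42 members against 0.0706% of all genes. SPATS2L, a stress granule protein, read 3.10, 3.04 and 3.07 at 0 h, 3.00, 2.92 and 2.94 at 12 h, 4.51, 4.46 and 3.58 at 24 h and 6.53, 6.68 and 4.65 at 48 h. Each 48 h array was above each 24 h array, and each 24 h array was above those of 0 h and 12 h. It rose by 1.77 ± 0.36 from 24 h to 48 h (adjusted p = 0.0404) and by 2.89 ± 0.36 from 0 h to 48 h (adjusted p = 2.18e-05). The SPATS2L mean of 3.07 at 0 h lay within the lower quartiles of the 0 h arrays (2.99 to 3.12), so it was close to background, and the 12 h mean was near background. An unadjusted p under 0.05 was reached by 14 members at this step, all of them higher, and 7 members did not overlap between the times, against 7.87% of all genes. The step rested on single arrays. Neither call remained without any 1 of the 3 arrays of 24 h or without replicate 1 or 2 of 48 h, and 7 members were called without replicate 3 of 48 h.

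**Figure D2:**
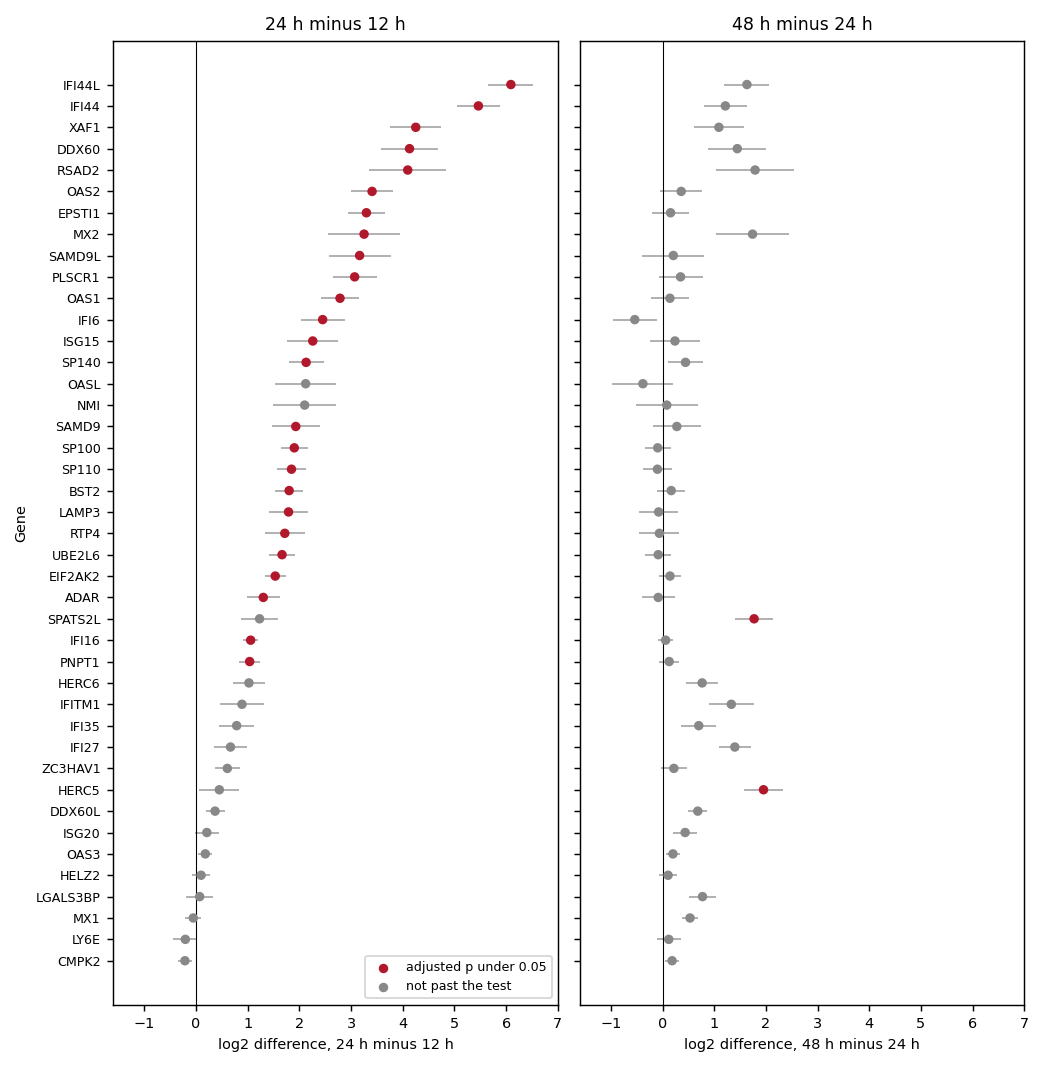
Log2 difference of each of the 42 members from 12 h to 24 h (left) and from 24 h to 48 h (right), with the standard error of the limma fit as bars. Red points passed the test at an adjusted p under 0.05. The left panel holds 25 red points, with IFI44L at 6.09, a lower bound because IFI44L was near background at 12 h, and the right panel holds 2, HERC5 and SPATS2L.

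Replicate 3 of 24 h differed from its group for nearly the whole list. It was the lowest 24 h array for 41 of 42 members (97.6%), against 43.8% of all genes and 55% of the other genes that were higher at 24 h. The mean over the 42 members was 7.18 and 7.03 on replicates 1 and 2 of 24 h and 5.84 on replicate 3, and it lay between 4.51 and 4.91 on the 12 arrays from 0 to 12 h. Thus replicate 3 was between the early arrays and the other 24 h arrays. Replicate 3 of 48 h was the lowest of its time for 31 of 42 members (73.8%), against 35.2% of all genes and 45.1% of the other genes higher at 48 h. Its member mean was 6.69 against 7.41 and 7.48. At 4 h replicate 3 was also the lowest for 30 of 42 members (71.4%), against 39% of all genes, with a member mean of 4.51 against 4.85 and 4.82. The cause of these differences was not tested. The medians of replicate 3 over all probe sets (4.05 at 24 h and 4.12 at 48 h) were within the range of the other arrays. Replicate 3 of 24 h had an interquartile range of 2.76 against 3.16 and 3.09 for the other 24 h arrays, a lower quartile of 3.09 against 2.89 and 2.93, and an array weight in limma of 0.40 against 1.33 and 2.87. Weights over the 18 arrays ran from 0.25 on replicate 2 of 8 h to 5.18 on replicate 1 of 8 h. That of replicate 3 of 48 h was 0.53 against 0.66 and 1.10. Without replicate 3 of 24 h and of 48 h, 34 members were higher than 0 h at 24 h.

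**Figure D3:**
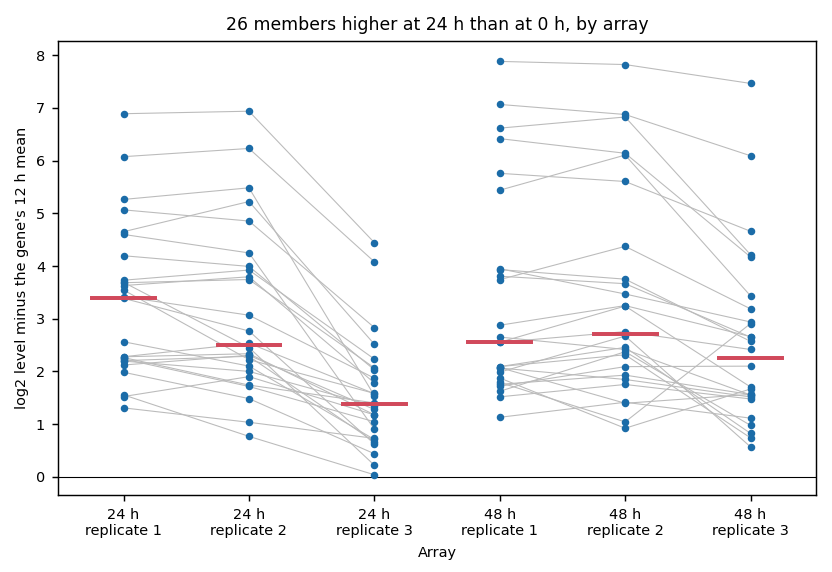
Level of the 26 members that were higher at 24 h than at 0 h on each 24 h and 48 h array, as the log2 level minus the 12 h mean of the gene. Points are genes, grey lines join a gene across the replicates of a time, and red bars are medians. The median was 3.40, 2.49 and 1.37 on the 24 h replicates and 2.55, 2.71 and 2.26 on those of 48 h.

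Of the 26 calls at 24 h against 0 h, 22 held with each array left out, and OASL, HERC6, ADAR and IFI35 were lost in at least 1 such setting. At 48 h, 31 of 36 held, and OASL, ADAR, ZC3HAV1, PNPT1 and ISG20 were lost. The members called at 48 h and not at 24 h were OAS3, HERC5, PNPT1, ISG20, ZC3HAV1, DDX60L, SPATS2L, IFI27, IFITM1 and LGALS3BP. Of these, HERC5 and SPATS2L passed the step from 24 h to 48 h. PNPT1 instead passed the earlier step from 12 h (1.04, adjusted p = 0.0103), a call lost with some single arrays left out. Its level had differed from 0 h by -0.50 before that step, which was not called (adjusted p = 0.151). Missing the 24 h call therefore does not by itself mark a later rise. The timing of these members was not compared directly with that of the others. The comparisons at 24 h and 48 h share the 0 h arrays.

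Members that lie side by side on a chromosome were not always called together. The RefSeq gene table places 17 members in 9 pairs of neighbouring protein-coding genes, and in 7 of these pairs no other gene of any kind lies between them. Both genes were higher at 24 h in 3 pairs, IFI44L with IFI44, SP110 with SP140 and SAMD9 with SAMD9L, and both were higher at 48 h in 7 pairs. In the OAS cluster OAS3 lies between OAS1 and OAS2, and its 24 h difference was 0.34 against 3.20 and 2.66. RSAD2 and CMPK2 start close together in opposite directions and differed from 0 h by 5.75 and 0.27 at 48 h. MX2 and MX1 differed from 0 h by 5.04 and 0.44, and DDX60 and DDX60L by at least 5.56 and at least 1.01. The difference between neighbours was not tested. How well each probe set responds to its transcript was not tested either.

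**Figure D4:**
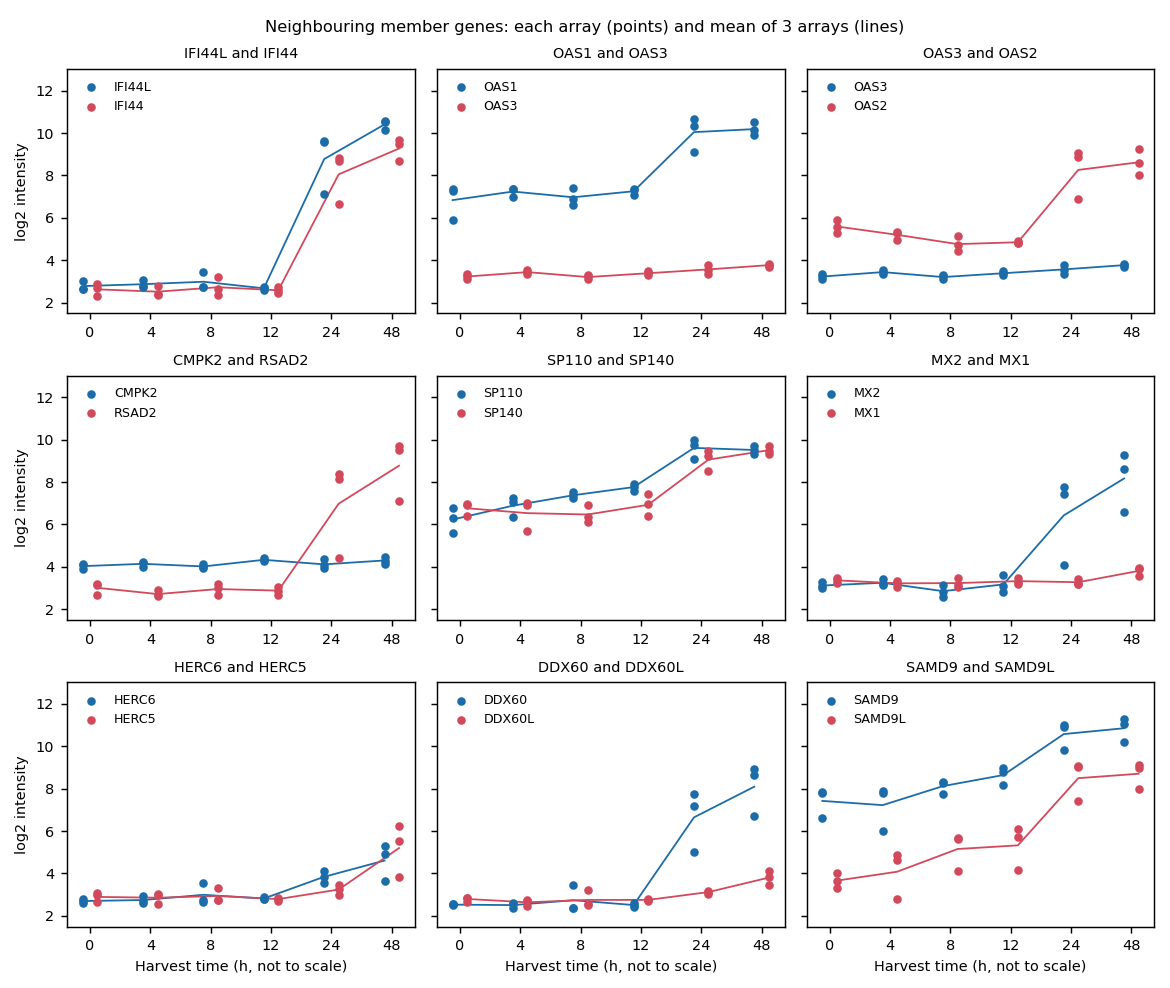
Log2 intensity of the 9 pairs of neighbouring members by harvest time, with 1 point per array and lines through the means of 3 arrays. Levels of different genes rest on different probe sets and are comparable only in their change over time. IFI44L and IFI44 rise together from 12 h to 24 h, while differences from 0 h at 24 h were called for MX2, RSAD2, OAS1 and OAS2 and not for MX1 (-0.09), CMPK2 (0.08) and OAS3 (0.34).

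Other genes of the interferon pathway were read from lists of ligands, receptors, signalling proteins, IRFs and sensors. Their part in the changes of the effector genes was not tested. Among 12 measured interferon ligands, 1 was higher at 24 h and none at 48 h. This was IFNB1, interferon beta, which read 2.48, 2.44 and 2.63 at 0 h, 2.87, 2.42 and 2.52 at 12 h, 4.34, 4.85 and 2.85 at 24 h and 2.82, 3.40 and 2.86 at 48 h. Replicates 1 and 2 of 24 h stood above all other arrays, and replicate 3 lay within the 12 h range. The IFNB1 level at 0 h was near background, and the difference at 24 h was at least 1.50 ± 0.37 (adjusted p = 0.0111). Of 6 receptor genes, IFNAR1 (0.73, adjusted p = 0.00952) and IL10RB (1.01, adjusted p = 0.0188) were higher at 24 h and none at 48 h.

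The list of JAK-STAT proteins and their brakes had 10 of 12 genes measured, of which 6 were higher at 24 h and 5 at 48 h. STAT3, which transmits cytokine signals, was already higher before the late times, by 1.96 ± 0.28 at 8 h (adjusted p = 0.000358) and 2.05 ± 0.28 at 12 h (adjusted p = 0.000163). It was 2.49 higher than at 0 h at 24 h (adjusted p = 1.33e-05), and the step from 12 h to 24 h was not called for it (0.45, adjusted p = 0.622). The phosphatase gene PTPN6 was 1.73 higher at 24 h (adjusted p = 0.00182). JAK2 was 1.64 higher at 48 h (adjusted p = 0.000187). IRF9, the DNA-binding subunit of the complex that occupies ISREs, was 1.16 ± 0.22 higher at 24 h (adjusted p = 0.00127), with no overlap between the 24 h and 0 h arrays. Among 6 IRF genes, IRF1 (2.79, adjusted p = 0.00251) and IRF2 (2.21, adjusted p = 0.00062), an activator and a competing repressor at ISRE sites, were higher at 24 h and at 48 h. IRF7, which amplifies interferon production, differed by 0.02 and 0.40 (adjusted p = 0.0989) and was not called.

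Of 14 measured nucleic acid sensors and adaptors, 5 were higher at 24 h and 5 at 48 h. RIGI, the cytoplasmic sensor of short and uncapped double-stranded RNA, had a mean of 4.81 ± 0.60 (SD, n = 3) at 0 h and 5.61 ± 0.48 at 12 h. Its mean was 9.98 ± 0.91 at 24 h and 9.94 ± 0.87 at 48 h. Each late array was above each early one, and the difference from 0 h was 5.18 ± 0.52 at 24 h (adjusted p = 3.83e-06) and 5.14 ± 0.52 at 48 h (adjusted p = 2.13e-06). IFIH1, which encodes MDA5, the sensor of long double-stranded RNA, was 1.95 higher at 24 h (adjusted p = 0.000362), and the endosomal receptors TLR3 and TLR7 were 1.47 (adjusted p = 0.014) and 1.32 (adjusted p = 0.0129) higher. TLR7 had also been 1.35 ± 0.34 higher at 4 h (adjusted p = 0.048), where it read 6.46, 6.76 and 4.87 against 5.01, 4.64 and 4.38 at 0 h, with replicate 3 of 4 h inside the 0 h range. Its means of 5.01 at 8 h and 4.80 at 12 h were not called against 0 h.

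**Figure D5:**
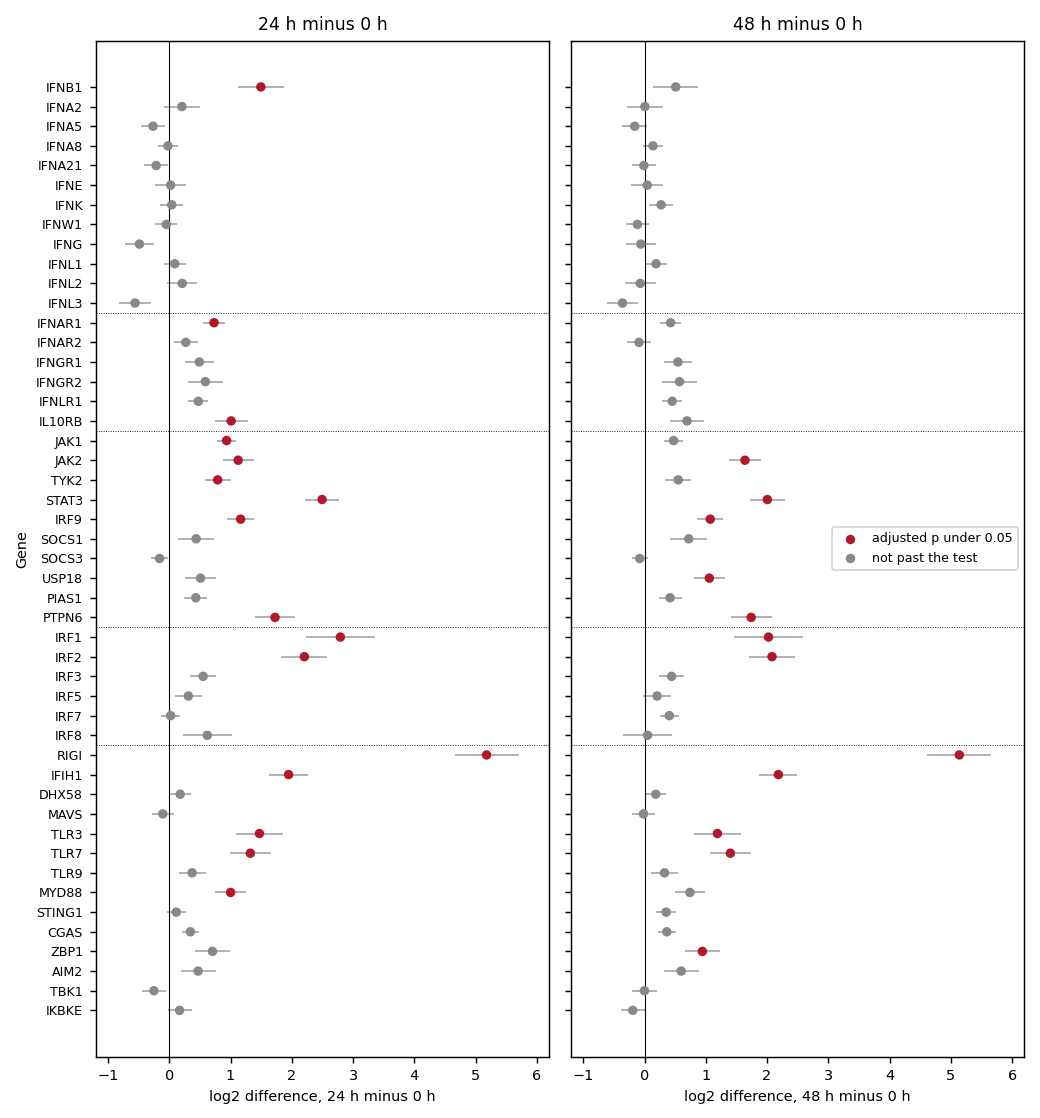
Log2 difference from 0 h at 24 h (left) and 48 h (right) for the measured pathway genes, grouped by dotted lines into ligands, receptors, JAK-STAT proteins, IRFs and sensors, with the standard error of the limma fit as bars. Red points passed the test at an adjusted p under 0.05. RIGI lies at 5.18 and 5.14, and IFNB1 is the single red ligand, at 24 h.

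Markers of other cell types were read for the same arrays. The mean of 5 T-cell markers was 3.11 to 3.14 on the 0 h arrays, 3.35 to 3.58 at 24 h and 3.18 to 3.72 at 48 h, and 1 of them, CD3D, was 1.57 higher at 24 h (adjusted p = 0.00297). Of 4 measured markers of plasmacytoid dendritic cells, the main interferon producers of blood, IL3RA (at least 1.01, adjusted p = 0.00854) and PTCRA (0.64, adjusted p = 0.0467) were higher at 48 h. The mean of this list was 3.34 to 3.43 at 0 h, 3.44 to 3.50 at 24 h and 3.43 to 3.96 at 48 h, and the defining gene CLEC4C had means of 3.18, 3.03 and 3.12 at these times. None of the 6 monocyte, 5 NK-cell, 5 fibroblast and 5 epithelial markers passed the test at 24 h or 48 h. Their part in the changes of the effector genes was not tested.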

How the data were processed

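The members, role groups, pathway and marker lists were chosen with earlier results of these data known. The deposited values are log2 intensities per probe set, per the labels from biotinylated cDNA on Affymetrix arrays; the authors' background correction and normalization are not given in the sources used here. The log base was deduced from their range. The table held 33297 probe sets, of which 19460 named 1 gene, 1754 several and 12083 none here. Each of 18417 genes took its probe set with the highest mean over the 18 arrays, and no dim genes were left out.

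Arrays were grouped by harvest time and fitted together with limma 3.58.1 in R 4.3.3 (group means, empirical Bayes, 12 residual and 5.58 prior degrees of freedom). A moderated F test compared the 5 later times with 0 h, and each later time was set against 0 h, and consecutive times against each other, by two-sided moderated tests. The p-values were adjusted over all genes within a comparison by the Benjamini-Hochberg method, with a threshold of 0.05. The fit was tested on simulated data. Alternatives were quantile normalization, median centring, leaving out the 25% dimmest genes, the mean of probe sets, array weights, a replicate block, only the arrays compared, and leaving out each array.

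In each role group the 3 members with the greatest measured difference between 24 h and 0 h among those past the F test are given array by array. Members not past it, members called at 4, 8 or 12 h or between 24 h and 48 h, neighbours, and up to 4 genes per pathway list are named, and other members were named to account for the whole list. Motifs were searched on both strands. Same-numbered arrays deviated together (correlation over 0.1 for all 3 numbers) in 2 of 9 comparisons, 8 h against 0 h and against 4 h. Tables and plots used Python 3.11.15, pandas 2.3.3 and matplotlib 3.10.9.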

Additional observations from a re-analysis of the deposited data

How the results depend on the processing

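The labels give no untreated time course, and 3 arrays per time limit the precision of every difference. No called difference of a member changed sign under any alternative. Without replicate 1 of 24 h the uncalled CMPK2 difference at 24 h turned from 0.083 to -0.034, and without replicate 3 it was 0.175. A further 111 member differences, in comparisons other than 24 h and 48 h against 0 h, were called in no setting and left aside. Among these the sign changed 145 times over the alternatives. Values near background bound a change only from below. The count of members past the F test was 35 to 38 with 1 array left out and 34 to 40 under the other settings. At 24 h against 0 h (26 members) it was 22 to 32 and 25 to 36, and at 48 h (36 members) 32 to 37 and 33 to 39. For 24 h against 12 h (25 members) it was 16 to 27 and 23 to 33, with 31 when replicate 3 of 24 h and of 48 h were both left out.

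The early and latest steps moved more, and the cause was not tested. At 4 h 1 member in place of 0 was called after quantile normalization, without the dimmest genes, with array weights, with the replicate block, with only the arrays compared and, chosen after seeing the data, with each array's interquartile range as a covariate. At 8 h array weights gave 5 in place of 3, and 0 to 2 were called with 1 array left out. At 12 h array weights gave 5, the replicate block 6 and only the arrays compared 9 in place of 3, and leaving out 1 array gave 2 to 4. Between 8 h and 12 h array weights gave 1 in place of 0. From 24 h to 48 h the count of 2 became 1 without the dimmest genes, 4 with array weights, 0 with only the arrays compared, 0 to 7 with 1 array left out and, chosen after seeing the data, 7 without replicate 3 of both times. With the replicate number as a block, 29 members were called at 24 h, 37 at 48 h, 25 from 12 h to 24 h and 3 from 24 h to 48 h. At 8 h, where the same-numbered arrays correlated with those of 0 h at 0.20, 0.19 and 0.14, the blocked count was 3, as without the block. Over all comparisons the correlations of same-numbered arrays ran from -0.24 to 0.60, 13 of 27 of them over 0.1. The labels do not say whether same-numbered arrays were paired.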
